A study of Homo sapiens with 8 samples.

Results

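The enzymes that build, desaturate and elongate fatty acids were followed in MDA-MB-231, an established human line of triple-negative breast cancer, cultured for 2 days on either a soft or a stiff support. The 10 genes are ACLY, ACSS2, ACACA, FASN, SCD, FADS1, FADS2, ELOVL5, ELOVL6 and GPAM. A gene was measured where the array platform lists its symbol, and no other, for a probe set, the group of short probes that reads 1 transcript. This gave 23 probe sets for 9 of the 10 genes, out of 54613 probe sets and 19775 genes in all. The 3 probe sets listed for FADS1 also carry the symbol of the microRNA gene MIR1908, so FADS1 has no value here. Each substrate had 4 biological replicates, called A, B, C and D, and the total RNA of each was read on its own Affymetrix array. Both groups were grown in the same serum-supplemented medium, and the labels name no genetic change or drug. They differed, as far as the labels say, in the substrate alone, for which the sources used here give no elastic modulus. How the replicate cultures were separated is not stated, so p-values measure only the spread between these samples, which may be technical. The question named in the series title concerns mechanical cues, the mevalonate pathway and RhoA, and these genes share part of their transcriptional control with that pathway.

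Fatty acid synthesis starts from cytosolic acetyl-CoA, which ATP citrate lyase (ACLY) makes from citrate and acyl-CoA synthetase short chain 2 (ACSS2) from acetate. Acetyl-CoA carboxylase alpha (ACACA) turns it into malonyl-CoA, and fatty acid synthase (FASN) joins these units into palmitate. ELOVL6 lengthens palmitate, SCD places the first double bond in saturated chains, and FADS1, FADS2 and ELOVL5 make polyunsaturated chains from dietary precursors. The product enters glycerolipids through the mitochondrial acyltransferase GPAM. Transcription of most of these genes is known to respond to the sterol-regulated factor SREBP-1, encoded by SREBF1, and that of SCD also to liver X receptors.

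Levels are log2 values after RMA, which equalises the arrays, so a shift common to all genes cannot be seen. Differences are soft minus stiff on this log2 scale, with their standard error (SE), and were called at an adjusted p under 0.05 (limma, Benjamini-Hochberg over all 54613 probe sets). Where a gene has several probe sets, it is described by the brightest, judged by the mean of all 8 arrays. A background level of 6.80 was set from 16 genes taken as silent in these cells. A probe set counted as above background where the higher of its group means exceeded that level. Arrays correlated at 0.9932 to 0.9982. Stiff A and B stood apart from stiff C and D on the second principal component, which held 16.4% of the variance, so for fatty acid genes a call lost against either pair of stiff arrays is stated. Of 8 markers of mesenchymal-like breast cancer lines, 7 lay above background, with SPARC (mean 4.83 on soft) as the exception, and 1, AXL, fell by 0.23 on the log2 scale (adjusted p = 0.0318). Of 7 luminal markers ERBB2, GATA3 and EPCAM lay above background, ESR1, PGR, FOXA1 and CDH1 did not, and none passed the threshold. In bulk RNA, fewer cells with a given state and less RNA per cell cannot be told apart.

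Of the 9 measured genes, SCD and ACSS2 rose on the soft substrate, ELOVL6 and GPAM fell, and ACLY, ACACA, FASN, FADS2 and ELOVL5 did not pass the threshold. The share called over all genes was 10.3%, made up of 4.39% higher and 5.93% lower. Only 10181 of the 19775 genes lay above background. From this share the 9 genes cannot be called more affected than other genes above background. In a fit of the 20099 probe sets above background alone, 2894 were higher and 3549 lower. In that fit 2 of the 9 genes were higher and 3 lower. SCD had the largest difference of the 9, 1.55-fold higher on soft, whereas GPAM was 1.26-fold and ELOVL6 1.23-fold higher on stiff. The median difference of the 9 genes was 0.04, against 0.01 over all genes. All 9 lay above background. Counted by probe set, 5 of 23 rose on soft, 2 fell and 16 did not pass the threshold, where 9.27% of all probe sets were called, 4.64% higher and 4.63% lower. These percentages also cover probe sets not above background. The 5 were the 4 probe sets of SCD and that of ACSS2. Leaving out soft A, B or D, or stiff B, C or D, left SCD as the 1 gene called higher, and leaving out soft D or stiff B, C or D left ELOVL6 as the 1 gene called lower.

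The windows before the annotated starts of SCD and ACSS2, which rose, and of GPAM, which fell, are shown as examples. These genes are known to be read from sterol-responsive promoters. The window of ELOVL6, which also fell, held 1 GGGCGG match and no CCAAT and is not printed. Capitals mark the CCAAT box bound by NF-Y, or GGGCGG bound by Sp1, on either strand (ATTGG and CCGCCC on the other). The sequences are from RefSeq (GRCh38.p14), cover the 250 bases before the start and run 5′ to 3′ on the gene's strand. The SCD window is chr10:100346983-100347232 on the plus strand, outside the annotated gene. RefSeq lists 2 starts for ACSS2, and the window of the first is chr20:34874739-34874988 on the plus strand, outside the annotated gene. The GPAM window is chr10:112183766-112184015 on the minus strand, inside the annotated span of the gene.
SCD: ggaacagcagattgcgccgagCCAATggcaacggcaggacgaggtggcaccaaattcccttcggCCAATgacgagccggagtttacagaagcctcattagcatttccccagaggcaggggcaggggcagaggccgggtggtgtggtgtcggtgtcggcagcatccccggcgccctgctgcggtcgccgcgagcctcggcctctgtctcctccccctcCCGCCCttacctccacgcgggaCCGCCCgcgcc
ACSS2: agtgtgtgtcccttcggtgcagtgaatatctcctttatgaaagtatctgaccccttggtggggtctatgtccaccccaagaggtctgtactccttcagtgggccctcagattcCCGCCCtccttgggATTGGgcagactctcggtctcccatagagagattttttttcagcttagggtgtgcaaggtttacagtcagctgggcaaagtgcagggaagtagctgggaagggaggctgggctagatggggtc
GPAM: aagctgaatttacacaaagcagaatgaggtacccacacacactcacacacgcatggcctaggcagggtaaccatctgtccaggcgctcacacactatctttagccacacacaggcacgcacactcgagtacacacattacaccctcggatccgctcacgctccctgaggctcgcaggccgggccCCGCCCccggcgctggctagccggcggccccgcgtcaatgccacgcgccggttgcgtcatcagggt
The SCD window held 2 CCAAT boxes, at bases 229 to 225 and 186 to 182 before the start, and 2 GGGCGG matches. The ACSS2 window shown held 1 of each, that of its other start no CCAAT and 3 GGGCGG matches, and the GPAM window held 1 GGGCGG match and no CCAAT. The start windows listed for 9 of the 10 genes include FADS1 and lack FASN. Of these 14 windows, among which those of ACLY share 179 bases and those of FADS2 49, 7 held CCAAT and 11 held GGGCGG, compared with 32.0% and 42.6% of 35116 windows of the same length. Counted by gene, 5 of the 9 had a window with CCAAT and 8 one with GGGCGG. The sterol response element TCACNCCAC was in none of the 14 and in 0.883% of all windows. The E-box CACGTG was in 1 of the 14, that of ELOVL5, and in 6.34% of all windows. Both strands were searched, and overlapping matches were counted separately. A match is a description of letters and not a shown binding site.

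SCD encodes stearoyl-CoA desaturase, the enzyme that makes oleate and palmitoleate from saturated chains. Its level on soft arrays A to D was 11.61, 11.55, 11.55 and 11.60. On stiff arrays A to D it was 11.24, 10.99, 10.68 and 10.87. The groups did not overlap, and the soft arrays lay within a narrow band (SD 0.032, n = 4), while the stiff arrays spread more widely (SD 0.23, n = 4). The difference was 0.63 (SE 0.10, adjusted p = 0.00403 by limma).

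The other SCD probe sets moved the same way, and none overlapped between groups. Their differences, from bright to dim, were 0.60 (limma adjusted p = 0.00769), then 0.42 (adjusted p = 0.0159), then 0.38 (adjusted p = 0.0358). The probe set at 0.42, with means of 7.12 on soft and 6.70 on stiff, lay above background on soft alone. The last, with means of 6.71 on soft and 6.33 on stiff, was not above background. All 4 have names ending in _s_at or _x_at, Affymetrix marks for probes that read several transcripts or may cross-hybridise, so SCD has no probe set without such a mark. SCD was the gene among the 9 that kept its call against each pair of stiff arrays. It was 0.46 higher than stiff A and B (adjusted p = 0.0229) and 0.80 higher than stiff C and D (adjusted p = 0.00351), in limma fits with 4 soft and 2 stiff arrays.

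**Figure D1:**
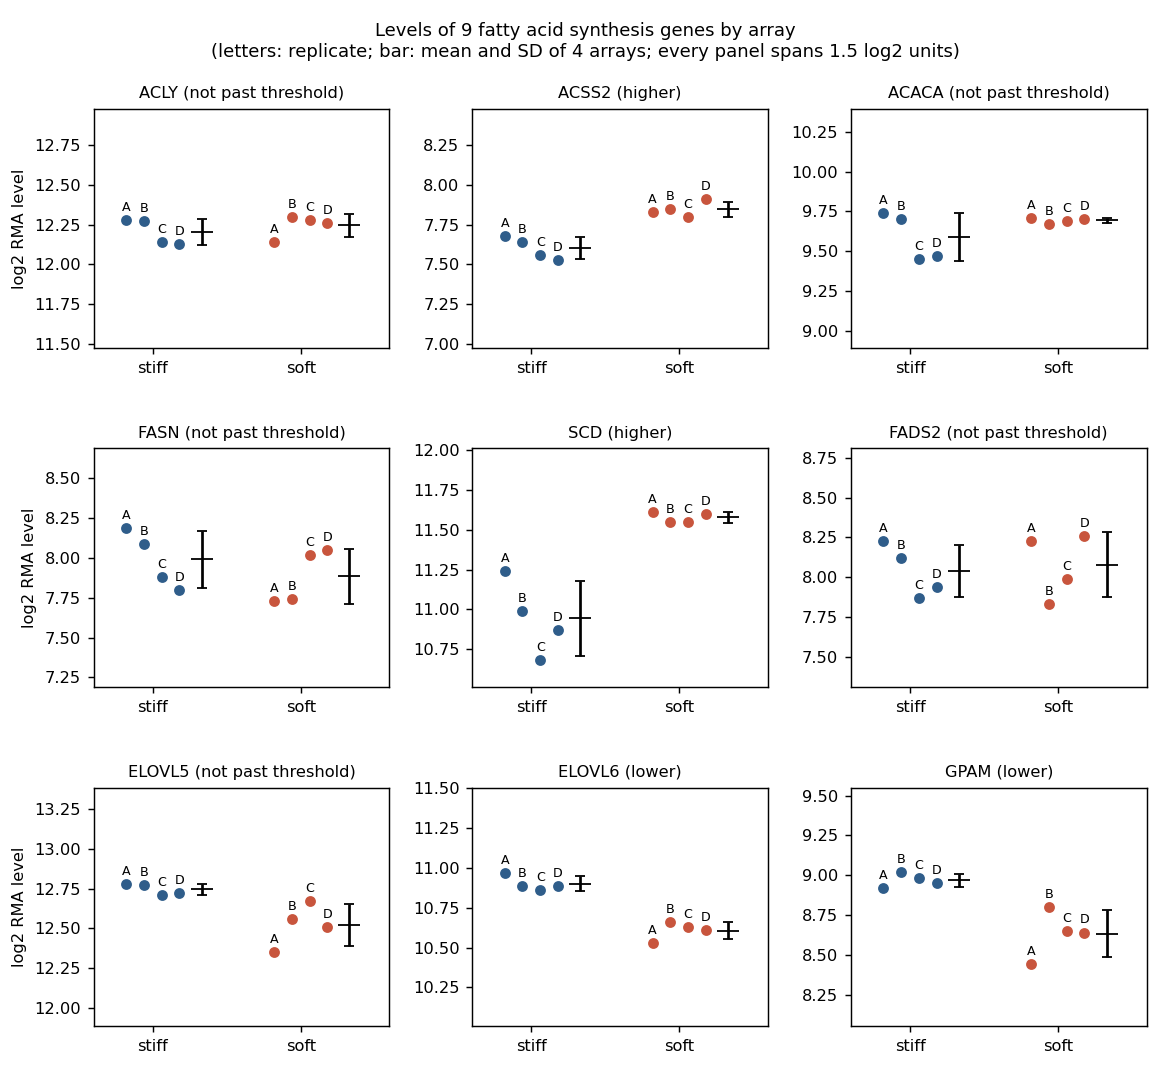
Log2 RMA levels of the 9 measured genes on each of the 8 arrays, with the replicate letter at each point and the mean and SD of each group of 4 beside it; every panel spans the same number of log2 units. SCD lies between 11.55 and 11.61 on all soft arrays and between 10.68 and 11.24 on stiff arrays, while the groups overlap for ACLY, ACACA, FASN and FADS2.

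ELOVL6, the elongase that extends palmitate, went the other way. It stood at 10.53, 10.66, 10.63 and 10.61 on soft arrays A to D and at 10.97, 10.89, 10.86 and 10.89 on stiff arrays A to D. Every soft array lay below every stiff array, and the difference was -0.30 (SE 0.059, adjusted p = 0.0119 by limma). Its probe sets did not give the same picture. One more differed by -0.29 without passing the threshold (SE 0.093, adjusted p = 0.0772), and another, also above background, differed by 0.02 (95% interval -0.12 to 0.16, adjusted p = 0.879). Averaged over its 3 probe sets, ELOVL6 differed by -0.19 and was no longer called (adjusted p = 0.0599). With stiff A and B alone (-0.32, adjusted p = 0.0503) or stiff C and D alone (-0.27, adjusted p = 0.0885) it also missed the threshold.

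GPAM, the outer mitochondrial membrane enzyme that starts glycerolipid synthesis, was read by 2 probe sets. Its level was 8.44, 8.80, 8.65 and 8.64 on soft arrays A to D and 8.92, 9.02, 8.98 and 8.95 on stiff arrays A to D. Soft A was lowest, and no soft array reached the stiff range. The difference was -0.34 (SE 0.078, adjusted p = 0.0219 by limma). The other probe set differed by -0.30 (SE 0.094, adjusted p = 0.0766), again with no overlap. The size was alike against stiff A and B (-0.34) and stiff C and D (-0.33), but neither smaller fit passed the threshold (adjusted p = 0.112 in each). The call was also lost on leaving out soft D (adjusted p = 0.0513), stiff B (0.0667), stiff C (0.0540) or stiff D (0.0505).

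ELOVL5, which elongates polyunsaturated chains, did not pass the threshold at any of its 4 probe sets. The brightest read 12.35, 12.56, 12.67 and 12.51 on soft arrays A to D and 12.78, 12.77, 12.71 and 12.72 on stiff arrays A to D. All soft arrays were below all stiff arrays, soft C narrowly so, with a difference of -0.22 (SE 0.073, 95% interval -0.38 to -0.061, adjusted p = 0.0870 by limma). It passed the threshold without soft C (-0.27, adjusted p = 0.0421), with a trended, robust variance model (adjusted p = 0.0157) and among probe sets above background alone (adjusted p = 0.0273). Leaving out any 1 other array gave no call (adjusted p = 0.124 to 0.184), and without soft A the difference shrank to -0.165. The other 3 probe sets were not above background and differed by 0.04, 0.24 and -0.09, and the mean of all 4 differed by -0.0088 (adjusted p = 0.942).

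FADS2, the delta-6 desaturase, stood at 8.23, 7.83, 7.99 and 8.26 on soft arrays A to D and at 8.23, 8.12, 7.87 and 7.94 on stiff arrays A to D. The groups overlapped throughout, and the difference was 0.04 (95% interval -0.20 to 0.28, adjusted p = 0.884 by limma). Its second probe set, not above background, differed by -0.12 (adjusted p = 0.563).

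Of the acetyl-CoA suppliers, ACSS2 rose and ACLY did not pass the threshold. ACSS2 read 7.83, 7.85, 7.80 and 7.91 on soft arrays A to D and 7.68, 7.64, 7.56 and 7.53 on stiff arrays A to D. The groups did not overlap. The difference was 0.25 (SE 0.061, adjusted p = 0.0305 by limma), or 1.19-fold, from its only probe set. This call was lost when the soft arrays were set against stiff A and B alone (0.19, adjusted p = 0.212) or stiff C and D alone (0.30, adjusted p = 0.0592). Leaving out soft A, soft B, soft D, stiff B, stiff C or stiff D also lost it (adjusted p = 0.0534 to 0.0924).

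ACLY was read by 3 probe sets that differed by 0.04 (adjusted p = 0.783), 0.22 (adjusted p = 0.0763) and 0.16 (adjusted p = 0.175) by limma, from the brightest to the dimmest. The brightest stood at 12.14, 12.30, 12.28 and 12.26 on soft arrays A to D and at 12.28, 12.27, 12.14 and 12.13 on stiff arrays A to D. Soft A lay with stiff C and D, and the other soft arrays with stiff A and B. At the other 2 probe sets all soft arrays lay above all stiff arrays.

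The core synthesis enzymes ACACA and FASN did not pass the threshold at any probe set. ACACA read 9.71, 9.67, 9.69 and 9.70 on soft arrays A to D and 9.74, 9.70, 9.45 and 9.47 on stiff arrays A to D. The soft arrays matched stiff A and B, and stiff C and D lay lower. The difference was 0.10 (95% interval -0.067 to 0.27, adjusted p = 0.487 by limma). FASN read 7.73, 7.74, 8.02 and 8.05 on soft arrays A to D and 8.19, 8.09, 7.88 and 7.80 on stiff arrays A to D. Both groups held a higher and a lower pair of arrays, A and B being the lower pair on soft and the higher pair on stiff. The difference was -0.11 (95% interval -0.34 to 0.13, adjusted p = 0.624 by limma). The second probe sets of ACACA and FASN, neither above background, differed by -0.06 and 0.15.

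**Figure D2:**
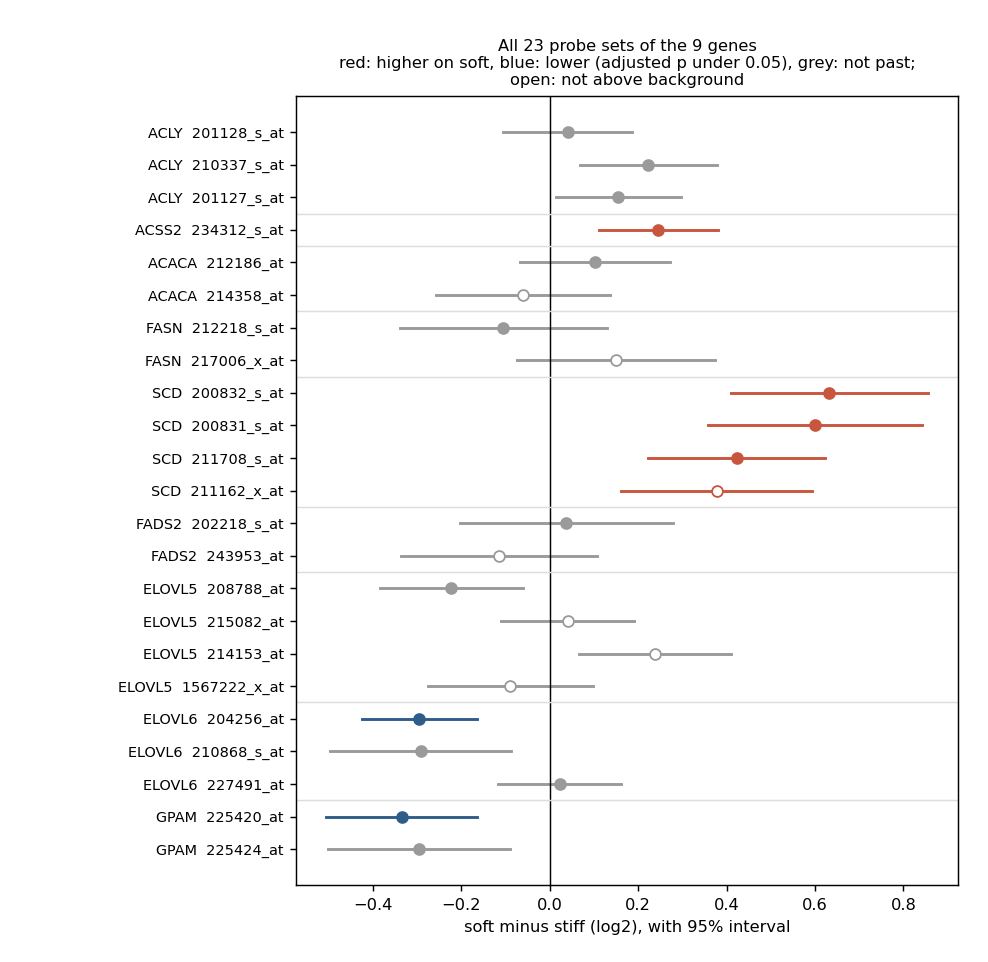
Soft minus stiff difference on the log2 scale, with its 95% interval, for each of the 23 probe sets, from the brightest to the dimmest within a gene; red and blue are higher and lower on soft past the threshold, grey did not pass it, and open symbols were not above background. The 4 probe sets of SCD lie between 0.38 and 0.63, and the 3 of ELOVL6 at -0.30, -0.29 and 0.02.

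Soft and stiff levels were fully separated for 5 of the 9 genes, SCD, ACSS2, ELOVL5, ELOVL6 and GPAM, and for 19.9% of all genes. By probe set this was 13 of 23, with soft above stiff at 8 and below at 5, and 16.6% of all probe sets. The percentages also cover genes and probe sets not above background, and the share among those above it was not computed. Within the stiff group, both of stiff A and B lay above both of stiff C and D for 7 of the 9 genes, all but ELOVL6 and GPAM. Over all genes this held for 27.8%. The reverse order was found for none of the 9 and for 22.1% of all genes. The shares of all genes again include those not above background. The mean level of the 9 genes was 10.00 and 9.94 on stiff A and B, 9.79 and 9.81 on stiff C and D, and 9.84 to 9.95 on soft arrays. The part of this difference among stiff arrays in the results above was not tested beyond the fits against each pair.

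Ratios between genes of 1 array do not depend on a scale factor of that array, and 8 pairs of genes with related roles were compared. The SCD to ELOVL6 ratio, on the log2 scale, was 1.08, 0.89, 0.92 and 0.99 on soft arrays A to D and 0.27, 0.10, -0.18 and -0.02 on stiff arrays A to D. It was 0.93 higher on soft without overlap. Both genes were already separated between the groups in opposite directions. The separation of this ratio, and so its p-value below, was therefore fixed in advance and adds no support. SCD also gained 0.60 on FADS2 and 0.68 on SCD5, the other human stearoyl-CoA desaturase, again without overlap. SCD5 lay between 9.09 and 9.37 on all arrays. This span is narrower than the gap between the lowest soft (11.55) and the highest stiff (11.24) level of SCD. The separation of the SCD to SCD5 ratio, and so its p-value below, therefore followed from that of SCD and adds no support either. The log2 ratio of ACLY to ACSS2 was 4.40 on soft and 4.60 on stiff, a difference of -0.21 without overlap. For these 4 pairs an exact two-sided permutation test of 4 against 4 arrays gave p = 0.0286, the smallest this design allows. Adjusted over the 8 pairs this was 0.0571, so 0 of 8 passed the threshold and 4 had an unadjusted p under 0.05. All of these 4 but ACLY to ACSS2 hold SCD, so they are not separate results. The arrays overlapped for the other 4 pairs. ACACA to FASN differed by 0.21 (exact permutation adjusted p = 0.137) and ELOVL5 to ELOVL6 by 0.07 (0.229). ACACA to ACACB differed by -0.12 (0.490) and SREBF1 to SREBF2 by 0.06 (0.571). When all probe sets of a gene were averaged, the ACLY to ACSS2 difference shrank to -0.11 (exact permutation p = 0.0571) and that of ACACA to FASN to -0.0013. The ELOVL5 to ELOVL6 difference grew to 0.18 (exact permutation p = 0.0286, adjusted p = 0.0571).

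**Figure D3:**
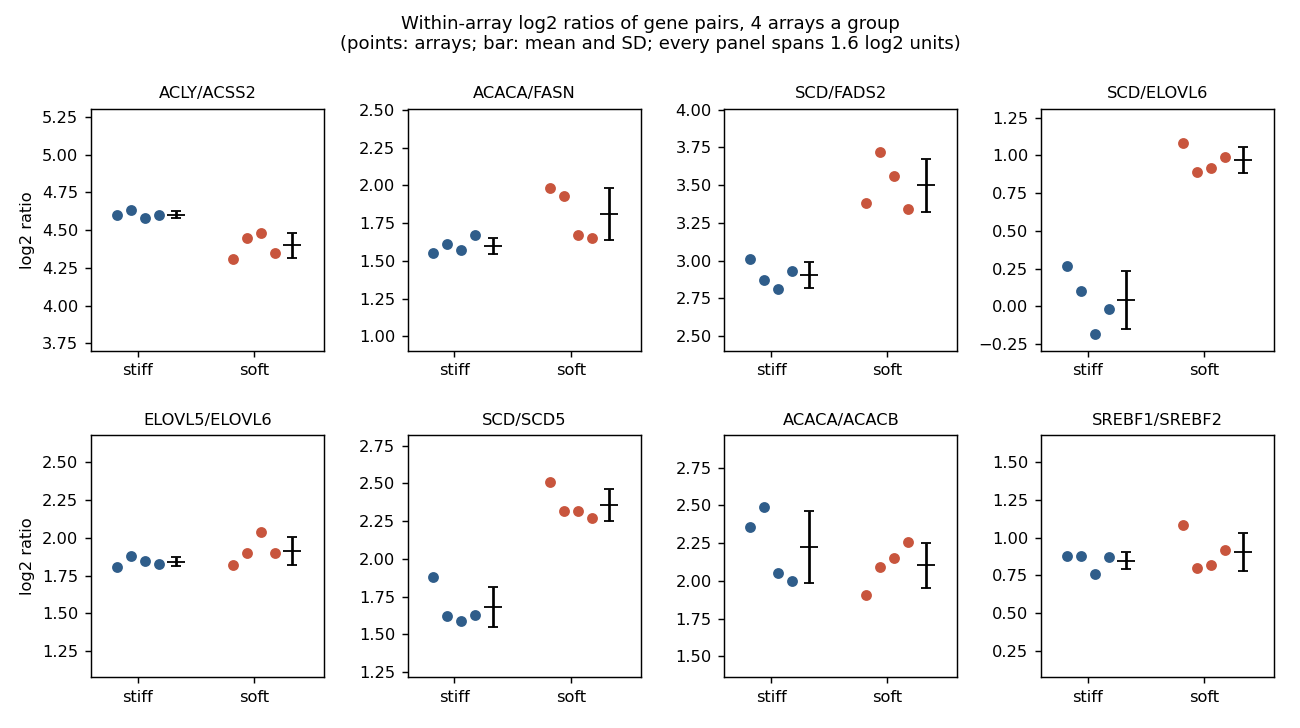
Within-array log2 ratios of the 8 gene pairs on stiff (blue) and soft (red) arrays, with the mean and SD of 4 arrays a group; every panel spans the same number of log2 units. The ratios of SCD to ELOVL6, FADS2 and SCD5 are higher on all soft arrays, and that of ACLY to ACSS2 is lower on all of them.

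Around these enzymes, 76 of 84 further fatty acid genes in 5 lists were measured. Of these, 12 were higher on soft, 1 lower and 63 not past the threshold, with a median difference of 0.06 (over all genes 4.39% were called higher and 5.93% lower). Of the 76 genes 64 lay above background, against 10181 of all 19775 genes, so these percentages are not a like comparison. These counts use the brightest probe set of each gene. Of all 181 probe sets of these genes 21 were higher and 3 lower, where 4.64% of all probe sets were higher and 4.63% lower. Of 22 regulators 5 rose, none fell and 17 did not pass the threshold (median 0.10). SREBF2, which encodes the sterol-regulated factor SREBP-2, rose by 0.29 (SE 0.064, adjusted p = 0.0167 by limma), and lost its call without soft D (adjusted p = 0.0505) or against stiff A and B (0.121). SREBF1 read 9.08, 8.73, 8.82 and 8.99 on soft arrays A to D and 8.68, 8.59, 8.37 and 8.58 on stiff arrays A to D. It rose by 0.35 (SE 0.092, adjusted p = 0.0380), with all soft arrays above all stiff arrays, but was not called against stiff A and B (0.27, adjusted p = 0.217) or stiff C and D (0.43, adjusted p = 0.0770), nor without soft A, soft D or any 1 of stiff B, C and D (0.0768 to 0.0986), nor when its probe sets were averaged (0.22, adjusted p = 0.101). INSIG1, which holds SREBP precursors in the endoplasmic reticulum and is itself an SREBP target, rose by 0.36 (adjusted p = 0.0347), and a second of its probe sets by 0.47 (adjusted p = 0.00342). At the first, soft A (9.54) lay just under stiff A (9.55), and the call was lost without any 1 of soft B, C and D or stiff B, C and D (0.0655 to 0.0975) and with stiff A and B as the only stiff arrays (0.24, adjusted p = 0.258). The remaining probe set, not above background, differed by -0.02, and the mean of the 3 by 0.27 (adjusted p = 0.0765).

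PPARA, a lipid-sensing nuclear receptor, rose by 0.37 (SE 0.073, adjusted p = 0.0108 by limma), and 3 more of its probe sets passed the threshold, by 0.27 to 0.69. PRKAA2, a catalytic subunit of the energy sensor AMPK that phosphorylates acetyl-CoA carboxylase, rose by 0.45 (adjusted p = 0.00831). Its probe sets moved apart: another fell by 0.42 (adjusted p = 0.0206), and their mean differed by 0.03 (adjusted p = 0.844). When stiff C and D were the only stiff arrays, neither PPARA (0.30, adjusted p = 0.0924) nor PRKAA2 (0.33, adjusted p = 0.0778) was called. Of the factors not past the threshold, SCAP, the escort of SREBP, differed by -0.10 (adjusted p = 0.563), and the liver X receptor NR1H3 by 0.22 (adjusted p = 0.105).

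Among 9 genes of precursor and NADPH supply 2 rose, none fell and 7 did not pass the threshold (median 0.12). IDH1, the cytosolic isocitrate dehydrogenase that yields NADPH, rose by 0.36 (SE 0.060, adjusted p = 0.00475 by limma) and at a second probe set by 0.38. Malic enzyme (ME1), another NADPH source, rose by 0.33 (adjusted p = 0.0290); it lost the call against stiff C and D (0.20, adjusted p = 0.199), without any 1 of soft B, C and D or stiff A and B (0.0585 to 0.0846), and when its probe sets were averaged (0.17, adjusted p = 0.164). ACACB, the carboxylase isoform tied to the mitochondrial surface, differed by 0.23 (adjusted p = 0.143). Its other probe sets, none above background, differed by -0.17 to 0.02, and the mean of all by -0.03 (adjusted p = 0.730).

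None of 13 other elongation and desaturation genes passed the threshold at its brightest probe set, and their median was -0.04. A dimmer probe set of HACD3, a dehydratase of the elongation cycle, fell by 0.38 on the log2 scale (adjusted p = 0.0348 by limma), while its other 3 differed by -0.16, 0.13 and 0.16. SCD5 differed by -0.04 (95% interval -0.22 to 0.13, adjusted p = 0.812 by limma), with overlapping arrays. Of 18 acyl activation and glycerolipid genes 3 rose, none fell and 15 did not pass the threshold (median 0.06). ACSL5, an acyl-CoA synthetase, rose by 0.44 (SE 0.058, adjusted p = 0.00159), with soft arrays at 10.91 to 10.95 and stiff arrays at 10.42 to 10.56, and its second probe set differed by 0.21 (adjusted p = 0.0969). The phosphatidate phosphatase LPIN1 rose by 0.29 (adjusted p = 0.0154) and the lipid droplet coat protein PLIN2 by 0.23 (adjusted p = 0.0275). The PLIN2 call was lost without any 1 array other than soft C (0.0543 to 0.0840), with either pair of stiff arrays alone (0.0845 and 0.160) and with its probe sets averaged (0.11, adjusted p = 0.180). That of LPIN1 was lost against stiff A and B (0.127). For LPIN2, a related phosphatase, the brightest probe set differed by 0.20 (adjusted p = 0.0911), and the other rose by 0.56 (adjusted p = 0.000931). AGPAT5 and ACSL4 had the lowest differences of this list at the brightest probe sets, not past the threshold. AGPAT5 differed by -0.42 (adjusted p = 0.0511) and -0.435 (0.0710), with all soft arrays below all stiff arrays at both probe sets. ACSL4 differed by -0.40 (adjusted p = 0.147) at its brightest probe set, with overlap. GPAT3 and GPAT4, which catalyse the step of GPAM at the endoplasmic reticulum, did not pass the threshold at their brightest probe sets, at 0.06 (adjusted p = 0.658) for GPAT3 and -0.02 (adjusted p = 0.898) for GPAT4. A dimmer GPAT4 probe set rose by 0.41 (adjusted p = 0.00559) without overlap. Its means were 7.09 on soft and 6.68 on stiff, so it lay above background on soft alone.

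Of 14 uptake and oxidation genes 2 rose, 1 fell and 11 did not pass the threshold (median 0.04). FABP5, a cytosolic fatty acid binding protein, fell by 0.39 on the log2 scale (SE 0.067, adjusted p = 0.00602 by limma), and missed the threshold against stiff A and B alone (-0.35, adjusted p = 0.0557). CPT1A, which admits fatty acids to mitochondrial oxidation, rose by 0.26 (adjusted p = 0.0414), and the fatty acid transport protein SLC27A1 by 0.30 (adjusted p = 0.0363). CPT1A lost its call without any 1 array other than stiff D (0.0617 to 0.119), with stiff C and D as the only stiff arrays (0.17, adjusted p = 0.267) and with its probe sets averaged (0.10, adjusted p = 0.290). SLC27A1 lost it without any 1 of soft A, C and D or stiff B, C and D (0.0537 to 0.0940) and with stiff A and B as the only stiff arrays (0.20, adjusted p = 0.232).

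**Figure D4:**
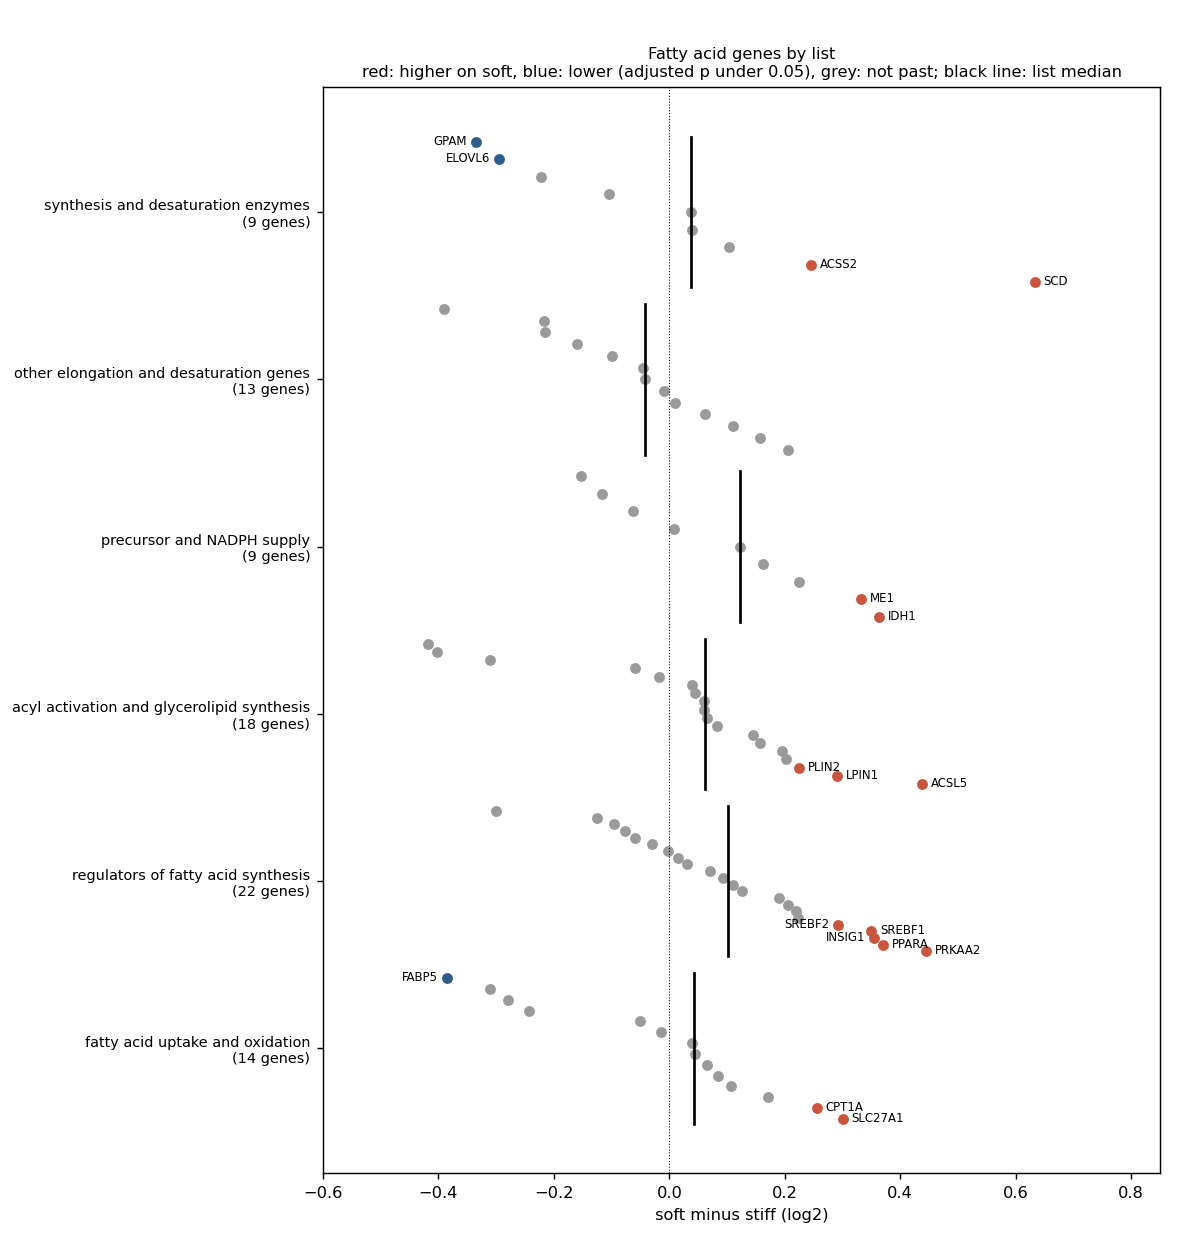
Soft minus stiff difference on the log2 scale of the 9 measured synthesis and desaturation enzymes and of 76 other fatty acid genes in 5 lists; red and blue are higher and lower on soft past the threshold and named, grey did not pass it, and the black line is the list median. SCD at 0.63 lies farthest to the right, and 5 regulators, among them SREBF1 at 0.35, lie between 0.29 and 0.45.

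Adipocytes and hepatocytes express many of these enzymes strongly. None of 8 adipocyte markers was above background or past the threshold, with a mean level of 5.07 to 5.10 on soft and 5.03 to 5.09 on stiff arrays. Of 6 hepatocyte markers none passed the threshold and 1, TTR, was above background. None of 6 fibroblast markers, of which COL1A1 alone was above background, and none of 5 leukocyte markers passed it. Of 5 endothelial markers PECAM1 rose by 0.49 (adjusted p = 0.00211 by limma; its other 4 probe sets did not pass the threshold), while CDH5, VWF, TEK and KDR were not above background. The part of PECAM1 in the results was not tested.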

How the data were processed

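Gene expression was measured on 8 Affymetrix arrays. The authors deposited log2 values made with RMA, per the submitters' processing notes; the sources used here name no software version, and the log2 scale was read from the values. The table held 54675 probe sets, of which 62 control probe sets were left out. Names came from the annotation of the array platform, updated against a RefSeq gene table (41037 of 41091 single-symbol probe sets matched). Soft and stiff were compared with limma 3.58.1 in R 4.3.3 (lmFit, eBayes without trend or filter, two-sided). Background is the 95th percentile of silent-gene means. Precision is limited by having 8 arrays. The procedure was tested on simulated data, with added differences larger than that of any called fatty acid gene but SCD at its brightest probe set. Smaller differences were not simulated. Members and lists were chosen with earlier results of these data known. Named were all members, SREBF1, SREBF2, SCD5, ACACB, genes of the pairs, and up to 3 called genes per direction of each list. SCAP, NR1H3, GPAT3, GPAT4, HACD3, LPIN2, AGPAT5 and ACSL4 were chosen after their values were seen. Replicate letters were not treated as pairs: deviations of same-lettered arrays correlated at -0.12 to 0.12. Alternatives were a replicate block, 3 other scalings, array weights, a trended and robust variance model, a filter on dim probe sets, a stricter threshold, probe sets without shared probes, gene means and left-out arrays.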

Additional observations from a re-analysis of the deposited data

Results flagged for a closer look

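Among 76 groups of 4 arrays, 2 held an array far from the other 3 (Dixon's criterion, which chance meets in about 1 in 20 groups). The dim ACACA probe set read 5.80 on soft C and 6.04 to 6.08 on the other soft arrays. A dim ELOVL5 probe set read 6.34 on soft A and 6.17 to 6.19 on the others. Neither was above background, and neither is the probe set by which the gene is described.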

How the results depend on the processing

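No called gene changed direction under any alternative. Over 24 named genes, 367 of 450 gene and setting combinations kept their side of the threshold. Of the others, 80 lost a call and 3, all of ELOVL5, gained one. The 367 include those of ACLY, ACACA, FASN, FADS2, SCD5 and ACACB, which were called in no setting, so they overstate how often calls were kept. The 450 combinations leave out the stricter threshold of 0.01, which ACSS2, ELOVL6, GPAM and SREBF1, among others, did not pass. SCD, IDH1 and ACSL5 kept their call in every alternative where they could be fitted. SCD, ACSS2, ACLY, FASN, ACSL5 and FABP5 have no probe set without an _s_at or _x_at mark and could not be fitted without these. With the replicate block, 1 member gene was higher and 2 wider genes were lower, against 2 and 1; the block ended the calls of ACSS2, INSIG1, PLIN2 and CPT1A. With array weights, the common 75th percentile or cyclic loess 2 wider genes were lower, and 3 after repeated quantile normalization. Among probe sets above background 5 member probe sets and 5 wider genes were lower; with the trended, robust variance model these were 5 and 4. In these 2 settings 3 member genes were lower, and 18 and 16 wider genes higher. Calls over all probe sets rose too. Of the 20099 probe sets above background 2894 were higher and 3549 lower. With the trended, robust variance model 3165 of 54613 were higher and 3582 lower, against 2535 and 2526 in the main fit. At adjusted p under 0.01, 1 member gene, 2 member probe sets and 3 wider genes were higher and 0 member genes and 0 member probe sets lower. Without _s_at and _x_at probe sets, 0 member genes and 0 member probe sets were higher and 0 wider genes lower, FABP5, the 1 called lower, being left out there. With gene means, 1 member gene was lower, and 7 wider genes were higher and 2 lower. Against stiff C and D, 1 member gene, 3 member probe sets and 6 wider genes were higher, and 0 member genes and 0 member probe sets lower. Against stiff A and B, 1 member gene, 2 member probe sets and 7 wider genes were higher, 0 member genes and 0 member probe sets lower, and 2 wider genes lower. Both fits have fewer samples; the cause of the other changes was not tested. Leaving out 1 array gave 1 to 2 member genes higher and 1 to 3 lower, 3 to 4 member probe sets higher and 1 to 5 lower, and 5 to 9 wider genes higher and 1 to 3 lower. For gene ratios, permutation within replicate letters cannot go below p = 0.125, nor with 1 array left out below 0.0571.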
